A study of Mus musculus with 8 samples.

Results

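The growth hormone receptor, STAT5 and IGF axis was followed in mouse liver through 10 genes: the receptor and its signalling chain (Ghr, Jak2, Stat5a, Stat5b), the secreted products and carriers (Igf1, Igfals, Igfbp1, Igfbp2) and the feedback inhibitors (Socs2, Cish). Members were the genes whose symbol stands on a non-control probe of the array, and all 10 of the 10 genes were found, with 20 probes, among 24029 named genes and 55681 probes. Of the 20 probes, 19 passed the filter on dim probes, and each was above background, by the scanner's flag for a signal well above it, on 8 of 8 arrays. The remaining probe, which lies on an Ensembl transcript of Socs2, was well above background on 0 arrays. Every gene kept at least 1 probe, so no member was lost to the filter.

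Liver RNA came from mice of strain bl6 that were 12 weeks old and fed chow. Every mouse received an adenovirus, built either with pblockITcontrol (control, n = 4 arrays) or with pblockITshRaly, which encodes a short hairpin RNA against Raly, an RNA-binding protein of the hnRNP family (shRaly, n = 4 arrays), and RNA was taken on day 6. Both groups therefore carried virus, and the comparison of shRaly with control is the only one in the design. The sample titles number the arrays and do not say that each is a separate mouse, and p-values here measure only how far these samples spread, which may be technical. All 8 arrays lay on 1 slide, control in row 1 and shRaly in row 2, and the effects of row and group cannot be told apart. In each row the number of an array was also its slide column.

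Growth hormone from the pituitary binds its receptor on hepatocytes, which activates the kinase JAK2, and JAK2 phosphorylates STAT5A and STAT5B. The STAT5 proteins enter the nucleus and switch on Igf1, the source of most circulating insulin-like growth factor 1, together with Igfals, whose product holds IGF1 in a large complex in plasma, and the inhibitors Socs2 and Cish, which damp the signal. In rodents the hormone is released in pulses whose pattern differs between the sexes, and liver STAT5 activity follows them. Igfbp1 and Igfbp2 encode IGF-binding proteins of plasma, and Igfbp1 is under strong control by insulin and fasting.

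Probe sequences are given for the genes the results turn on, and the 2 Ghr probes are shown because they tell the 2 transcript forms of the receptor apart. The full-length form encodes the membrane receptor, and the short form encodes the soluble growth hormone-binding protein. The probes are 60 bases long, and positions are those of the array files on mouse build mm9 (their place in exons or untranslated regions was not analysed here). The first 30 bases are given for the probes at chr15:3268107-3268166 (minus strand, full-length Ghr), chr15:3277543-3277602 (minus strand, short Ghr), chr9:107204196-107204255 (plus strand, Cish) and chr10:94875066-94875125 (minus strand, the Socs2 probe that gives the Socs2 values).
Ghr, full-length form: atctctttcatgcaggagagacagtgaaaa
Ghr, short form: cttgtgggcacctgcattcatatgcacata
Cish: actttagaaaacaagtgttagaacacaaga
Socs2, probe of the gene's values: aggtgtgaagatgtagctaggtattttaaa

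The whole probe is given for a second Socs2 probe (chr10:94875468-94875527, minus strand), Igfals (chr17:25018251-25018310, plus strand) and Igfbp2 (chr1:72898677-72898736, plus strand), whose last 3 bases, in capitals, are the stop codon. The second Socs2 probe is 1 of the 3 that were measured for that gene and does not give its values per array.
Socs2, second probe: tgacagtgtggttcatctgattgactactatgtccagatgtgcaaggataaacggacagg
Igfals: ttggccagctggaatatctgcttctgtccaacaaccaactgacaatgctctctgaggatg
Igfbp2: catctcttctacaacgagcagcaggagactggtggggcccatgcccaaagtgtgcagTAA

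STAT5 is known to bind the palindrome TTCNNNGAA, which reads the same on both strands. RefSeq promoter windows of assembly GRCm38.p6, from 250 bases before to 50 bases after a transcript start, were searched for it. The table held windows for 9 of the 10 genes, in 15 windows, and the motif stood in 3 of them, which belong to Cish and Igfals. The motif stood in 8.30% of all 32851 windows and more than once in 0.457%. The matching stretches are shown because both genes are known STAT5 targets, with the motif in capitals: Cish at chr9:107296654-107296683 (plus strand, 2 motifs between bases 1 and 20 after the start) and Igfals at chr17:24877603-24877621 (plus strand, bases -236 to -228 from one start) and chr17:24878168-24878186 (plus strand, bases -58 to -50 from another).
Cish: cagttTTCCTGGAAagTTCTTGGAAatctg
Igfals, first window: ataatTTCTCAGAAaagag
Igfals, second window: aggtgTTCCTAGAAgaggc
A match describes the letters of the window and is not a measured binding site.

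Between 45.9% and 51.1% of the non-control spots per array were well above background. Raly stood at 62.5% of the control mean in shRaly liver (log2 fold change -0.68, SE 0.15), with no overlap of the groups, and its adjusted p in limma was 0.0749. It passed the threshold in 3 of 20 alternatives: normexp background correction (0.0111), a trended, robust variance (0.0383) and without shRaly 2 (0.0297). All 17 hepatocyte marker genes were measured, with 0 past the threshold, a median log2 fold change of -0.07 and a summed level of 96.9% to 104% of the control mean in control and 83.9% to 104% in shRaly arrays. The Y-linked genes Ddx3y and Eif2s3y were above background on 8 of 8 arrays, and Xist, the RNA of the inactive X chromosome, on 0. Of the further Y-linked genes followed, Uty was measured and Kdm5d was well above background on 0 arrays. Fewer cells of a type and less RNA per cell cannot be told apart in RNA from whole liver.

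None of the 10 genes differed between shRaly and control liver past the threshold of an adjusted p of 0.05 (limma, Benjamini-Hochberg over 14874 genes), in either direction. Over all genes tested, 182 passed (1.22%), 46 higher and 136 lower in shRaly. A count of 0 among 10 genes lies near that share. The groups overlapped for all 10 genes, and 0 of the 10 had an unadjusted p under 0.05, where 10.4% of all genes tested had groups that did not overlap and 16.1% had such a p. The median log2 fold change of the 10 genes was -0.06 (range -0.38 to 0.16, 7 of 10 negative), beside -0.02 over all genes tested.

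How firmly a change can be bounded differed between the genes. The 95% interval of the fold change lay within 1.5-fold in both directions for 6 of the 10 genes (60%, against 68.0% of all genes tested) and within 2-fold for 7 (70%, against 91.4%). The 3 genes with wider intervals were Igfbp1, Socs2 and Cish.

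**Figure D1:**
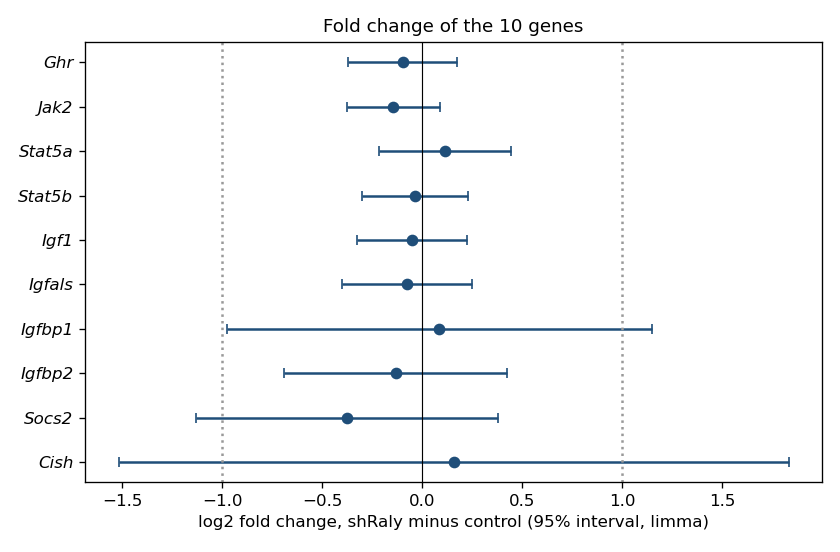
Log2 fold change of each of the 10 genes, shRaly minus control (horizontal axis), as a point with its 95% interval from limma (4 arrays a group). Every interval spans 0, and those of Cish (-1.52 to 1.83), Igfbp1 (-0.98 to 1.15) and Socs2 (-1.13 to 0.38) are the widest.

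In the values that follow, each array's signal is given as a percent of the control mean, in the order of arrays 1 to 4 of a group. The control mean, for Raly above as well, is the mean of the control arrays on the log2 scale, which is a geometric mean. A gene's mean as a percent of control is reckoned in the same way. The percentages compare arrays for 1 gene and do not compare genes with each other. Summed levels of marker genes are instead a percent of the arithmetic mean of the control sums.

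Neither form of the receptor passed the threshold. The full-length form of Ghr, the membrane receptor, measured 80.2, 100.1, 107 and 116% in control and 64.9, 93.1, 92.7 and 77.4% in shRaly arrays. All 4 shRaly arrays lay below controls 2, 3 and 4, and shRaly 2 and 3 lay above control 1. The mean was 81.1% of control (log2 fold change -0.30, SE 0.16, limma adjusted p = 0.409 over all probes).

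The short form, the binding protein, was read by the brighter of the Ghr probes, which by the rule of the brightest probe stands for Ghr in the counts over genes. It measured 91.3, 97.6, 105 and 107% in control and 78.0, 99.6, 110.0 and 89.0% in shRaly arrays. Array shRaly 1 was the lowest and shRaly 3 the highest of all 8, and the control values lay between them. The mean was 93.4% of control (interval 77.3% to 113%; log2 fold change -0.10, SE 0.12, limma adjusted p = 0.735).

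Jak2, the tyrosine kinase bound to the receptor, measured 92.8, 96.1, 108 and 104% in control and 102, 89.4, 92.1 and 79.5% in shRaly arrays. Arrays shRaly 2, 3 and 4 lay below every control array and shRaly 1 lay among the controls. This gave a log2 fold change of -0.14 (SE 0.10, interval -0.38 to 0.09, limma adjusted p = 0.524).

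The 2 STAT5 genes, which lie next to each other on chromosome 11 and encode closely related transcription factors, stayed within their spread. Stat5a measured 87.0, 111, 111 and 93.2% in control and 134, 88.8, 101 and 113% in shRaly arrays, with shRaly 1 the highest of the 8. Its log2 fold change was 0.11 (SE 0.15, interval -0.22 to 0.44, limma adjusted p = 0.749). Stat5b, the more abundant form in liver by background knowledge, measured 88.0, 97.9, 123 and 94.6% in control and 89.3, 99.1, 97.6 and 104% in shRaly arrays. All 4 shRaly values lay inside the control range, and the log2 fold change was -0.04 (SE 0.12, interval -0.30 to 0.23, limma adjusted p = 0.912).

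Igf1, the secreted growth factor, was close to control and among the better bounded of the 10 genes. It measured 83.1, 107, 102 and 110.2% in control and 86.9, 109.8, 99.7 and 91.0% in shRaly arrays. In each group the array numbered 1 was the lowest. The mean was 96.5% of control with an interval of 79.9% to 117% (log2 fold change -0.05, SE 0.12, limma adjusted p = 0.874).

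Igfals, which encodes the acid-labile subunit of the plasma IGF complex, measured 116, 107, 81.5 and 98.7% in control and 77.7, 106, 105 and 93.7% in shRaly arrays. The lowest value, shRaly 1, lay just under the lowest control value, and the other 3 shRaly values lay inside the control range. The log2 fold change was -0.08 (SE 0.14, interval -0.40 to 0.25, limma adjusted p = 0.840).

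Igfbp1, the insulin-controlled binding protein, gave the highest and the lowest value of its 8 arrays within the shRaly group. It measured 71.0, 117, 130.4 and 92.2% in control and 42.5, 109, 107 and 256% in shRaly arrays, a 1.84-fold range in control and a 6.02-fold range in shRaly. The log2 fold change was 0.08 (SE 0.47, interval -0.98 to 1.15, limma adjusted p = 0.953). Without array shRaly 4 it was -0.34, and without control 1 it was -0.08.

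Igfbp2, the other binding protein, measured 72.6, 107, 132 and 97.0% in control and 65.9, 129, 75.7 and 108% in shRaly arrays. The array numbered 1 was the lowest in each group, and the ranges, 1.82-fold and 1.96-fold, were alike. On the log2 scale the difference was -0.13 (SE 0.25, interval -0.69 to 0.43, limma adjusted p = 0.838).

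**Figure D2:**
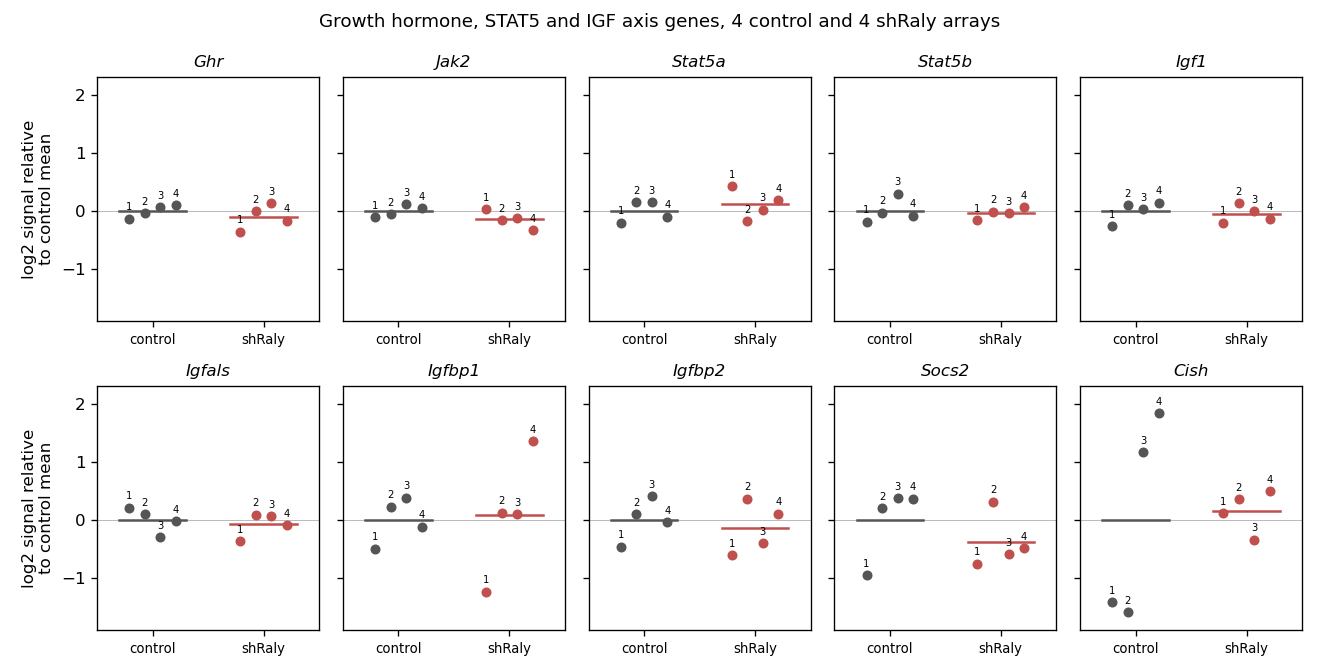
Log2 signal of each gene on each array relative to the control mean (vertical axis), with 1 panel a gene, 4 points a group and a bar at the group mean. The groups overlap in every panel. Cish is spread in the control group and Igfbp1 in the shRaly group.

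Of the feedback inhibitors, Socs2 had the most negative fold change of the 10 genes. Socs2, whose product is a main brake on growth hormone signalling, measured 51.9, 115, 129.8 and 129% in control and 59.4, 124, 66.5 and 71.5% in shRaly arrays. Arrays shRaly 1, 3 and 4 stood well below controls 2, 3 and 4, while shRaly 2 lay among these controls and control 1 was the lowest of all 8. The log2 fold change was -0.38 (SE 0.33, 77.0% of control, interval 45.6% to 129.9%, limma adjusted p = 0.617). Without control 1 it was -0.69 and without shRaly 2 it was -0.61, and over all 20 alternative settings the adjusted p did not go below 0.257.

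Cish, the other inhibitor, had means on the log2 scale that were close and control arrays that were far apart. It measured 37.5, 33.4, 224 and 357% in control and 108, 128, 79.0 and 141% in shRaly arrays. Controls 1 and 2 were low, controls 3 and 4 were high, and all 4 shRaly arrays fell between them. The log2 fold change was 0.16 (SE 0.74, interval -1.52 to 1.83, limma adjusted p = 0.943), and it was -0.32 without control 1 and -0.37 without control 2.

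The control spread of Cish was among the largest on the array. Its SD between control arrays was 1.75 on the log2 scale, rank 7 of 14874 genes tested, against an SD of 0.37 between shRaly arrays, rank 2517. The signal covered a 10.7-fold range in control and a 1.79-fold range in shRaly. A difference in spread between the groups was not tested, and with 4 arrays a group each SD is itself imprecise. The next in spread within groups were Igfbp1, with an SD of 0.39 in control and 1.06 in shRaly (rank 103 in shRaly), and Socs2, with 0.64 and 0.47. Over the 10 genes the median SD within groups was 0.22, and over all genes tested it was 0.19.

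**Figure D3:**
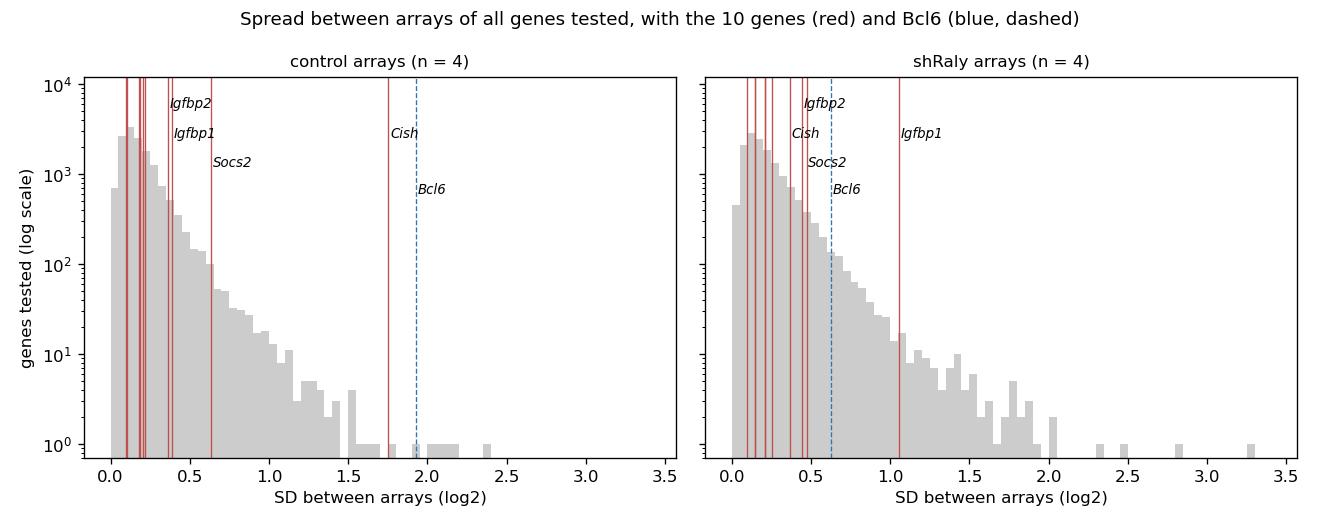
Histograms of the SD between arrays (log2, horizontal axis) over all genes tested, with the number of genes on a log scale, for the 4 control and the 4 shRaly arrays. Red lines mark the 10 genes and the dashed blue line marks Bcl6. Cish (1.75) and Bcl6 (1.93) stand far to the right in control, and Igfbp1 (1.06) is the rightmost of the 10 genes in shRaly.

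Bcl6, a transcriptional repressor that competes with STAT5 for its sites and is itself lowered by growth hormone, spread in the control arrays in the reverse order to Cish. It measured 328, 308, 32.4 and 30.5% of the control mean in control and 80.6, 73.8, 193 and 97.5% in shRaly arrays. Controls 1 and 2, low in Cish, were high in Bcl6, and controls 3 and 4 were the reverse. Array shRaly 3 had the lowest Cish and the highest Bcl6 of its group. The reverse order did not hold for the rest of that group. Cish was highest on shRaly 4, while Bcl6 was lowest on shRaly 2 and higher on shRaly 4 than on shRaly 1. The SD of Bcl6 between control arrays was 1.93 (rank 6 of 14874), and its log2 fold change was 0.04 (SE 0.84, interval -1.85 to 1.94, limma adjusted p = 0.985).

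Some other genes of the lists split the control arrays in the direction of Cish and some in the reverse direction. As examples, 3 of the former, chosen after their values were seen, are given on the log2 scale relative to the control mean. Onecut1, a liver transcription factor, stood at -1.10, -0.73, 0.49 and 1.34 on controls 1 to 4 (SD 1.12, rank 43). Myc, a growth-related transcription factor, stood at -0.80, -0.60, 0.35 and 1.04. Foxa2, another liver transcription factor, stood at -0.34, -0.33, 0.32 and 0.35. Their fold changes between the groups were 0.01, -0.01 and -0.17 on the log2 scale. For Igf1, control 2 was above control 3, and Socs2 was below the control mean in control 1 alone. Ghr (short form), Jak2, Prlr and Igfbp3 also had controls 1 and 2 below controls 3 and 4. Irs2 (0.33, 0.30, 0.04 and -0.67 on controls 1 to 4) and Pim1 (0.60, 0.16, -0.03 and -0.73) had controls 1 and 2 above controls 3 and 4. The genes split in each direction were not counted, and whether they are more than chance would give was not tested.

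**Figure D4:**
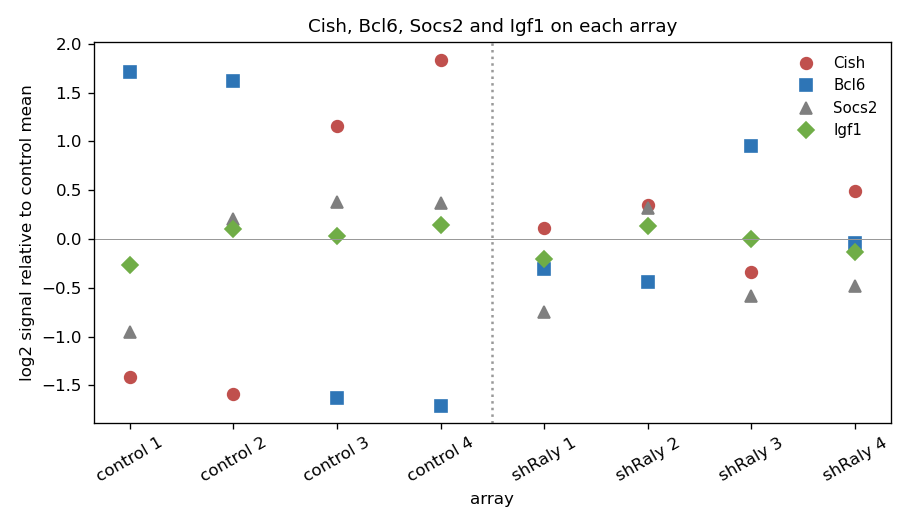
Log2 signal relative to the control mean (vertical axis) of Cish, Bcl6, Socs2 and Igf1 on each of the 8 arrays (horizontal axis), with control left and shRaly right of the dotted line. On controls 1 and 2 Cish (37.5% and 33.4% of the control mean) is below and Bcl6 (328% and 308%) above the mean, and on controls 3 and 4 the order is turned, while Igf1 stays near 0 throughout.

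Array control 1 was the lowest control array for 8 of the 10 genes and shRaly 1 the lowest shRaly array for 7. Over all genes tested, control 1 was the lowest of its group for 31.5% of genes and shRaly 1 for 33.4%. Without both of these arrays, an alternative added after the values were seen, 0 of the 10 genes passed the threshold, and Stat5a (-0.057), Igfals (0.091) and Cish (-0.30) changed sign on the log2 scale. Arrays control 1 and shRaly 1 both lay in slide column 1, and number and column cannot be told apart. What sets these 2 arrays apart was not tested.

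Genes with several probes gave a check within the array. The Socs2 probe that stands for the gene was printed in 10 spots, and the SD between those spots was 0.04 to 0.10 on the log2 scale, against 0.64 between control arrays and 0.47 between shRaly arrays. The other 2 measured Socs2 probes had log2 fold changes of -0.50 (SE 0.33) and -0.46 (SE 0.32), the same direction as the first. For Igf1 the 4 probes beside the brightest had log2 fold changes of -0.11, 0.01, -0.10 and -0.34, and 1 of them overlaps the brightest by 40 of its 60 bases. The last of these values, from a probe annotated to another transcript than the other Igf1 probes, had an SE of 0.20 and a limma adjusted p of 0.466 over all probes. The second probes of Igfbp2 (-0.14, SE 0.27) and Stat5b (-0.11, SE 0.11) stayed near their first.

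The within-array log2 ratio of the full-length to the short form of Ghr differed by -0.20, shRaly minus control, and control 1 (-0.19 from the control mean) lay among the shRaly arrays (-0.26, -0.10, -0.25 and -0.20). This was the smallest p of 9 such probe pairs, at 0.0571 in an exact two-sided permutation test (0.514 after Benjamini-Hochberg adjustment over the 9 pairs), where the smallest p the design allows is 0.0286. The pairs were compared after the values had been seen.

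Around the 10 genes, 90 further genes in 9 lists were followed, of which 75 were measured. In limma 0 were higher and 1, Igf2r, was lower past the threshold, beside 0.914% of all genes tested that were lower. The groups did not overlap for 8 of the 75 and 10 had an unadjusted p under 0.05, shares near the 10.4% and 16.1% over all genes. The median log2 fold change of the 75 was -0.02, the same as that of all genes.

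Igf2r encodes the receptor that takes up IGF2 and mannose 6-phosphate-tagged enzymes and delivers them to lysosomes. Its probe lies on chromosome 17. It measured 94.4, 96.7, 105 and 104% of the control mean in control and 74.5, 75.2, 64.2 and 64.9% in shRaly arrays, so that every shRaly array lay below every control array. The signal fell to 69.5% of control (log2 fold change -0.52, SE 0.09, interval -0.73 to -0.31, limma adjusted p = 0.0384). The direction held in all 20 alternatives, with adjusted p from 0.0147 to 0.139. The call was kept in only 1 of the 8 fits that leave out an array (the one without shRaly 2), and was lost in 4 of the 12 others: median scaling (0.0610), no filter on dim probes (0.117), the replicate number as a block (0.139) and both arrays numbered 1 left out (0.0889). In the same arrays the summed endothelial markers ranged from 93.1% to 106% of the control mean in control and from 78.3% to 93.2% in shRaly, with 0 of 10 past the threshold, and lymphocyte markers from 88.1% to 124% and from 54.0% to 93.8%, with 0 of 8. Kupffer cell markers ranged from 74.5% to 112% and from 88.0% to 108%, with 0 of 9 past the threshold and Timd4 above background on 0 arrays. Stellate cell markers ranged from 90.9% to 108% and from 89.5% to 109%, with 0 of 10 past the threshold. The median log2 fold changes were -0.16 for endothelial, -0.25 for lymphocyte, -0.02 for Kupffer and -0.20 for stellate markers. Of the stellate genes, Lrat (-0.56), Col1a2 (-0.49) and Pdgfrb (-0.46) had the most negative values, with adjusted p in limma of 0.333, 0.174 and 0.267. Other stellate genes did not share this fall: Dcn (0.09) and Ecm1 (0.02) were slightly higher in shRaly, and Hgf stood at -0.006. Cholangiocyte markers had a median of -0.12 (0 of 5 past the threshold) and neutrophil markers one of 0.40 (0 of 3). The part of these cells in the Igf2r result was not tested.

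**Figure D5:**
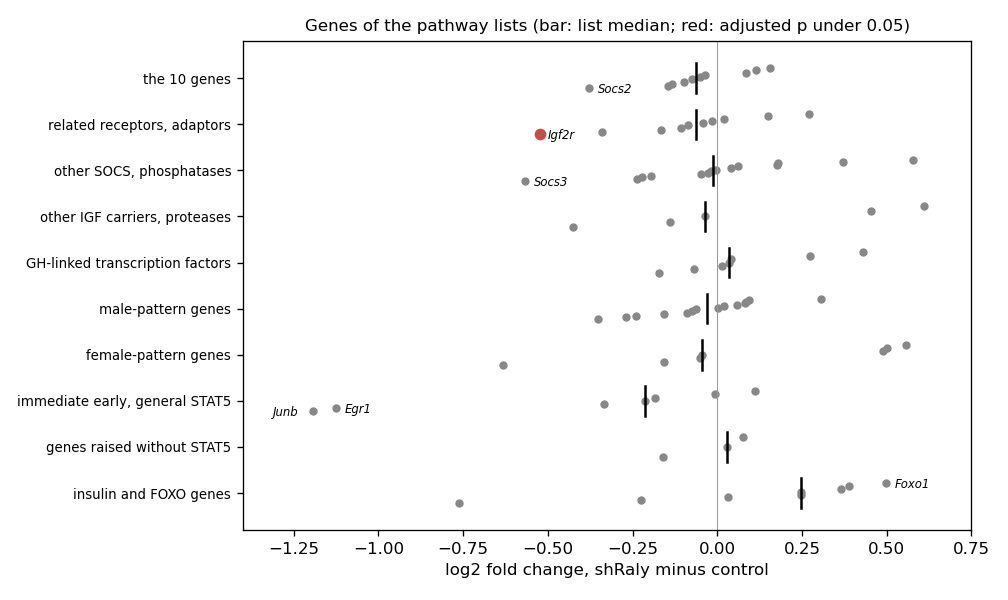
Log2 fold change, shRaly minus control (horizontal axis), of the 10 genes (top row) and of each measured gene in the 9 lists around the axis, with 1 point a gene, offset vertically only to part them, and a bar at the list median. The medians lie between -0.21 and 0.25, and Igf2r (-0.52, red) is the only gene past the threshold.

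The other receptors and adaptors of the pathway, 10 genes measured of 10, had a median log2 fold change of -0.06. Prlr, the prolactin receptor and closest relative of Ghr, measured 77.1, 89.9, 119.9 and 120.3% in control and 106, 61.2, 92.7 and 65.0% in shRaly arrays, with overlap (log2 fold change -0.34, SE 0.22, limma adjusted p = 0.480). Irs2, the adaptor of insulin and IGF receptors, had a log2 fold change of -0.04 (SE 0.24).

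The other SOCS genes, phosphatases and adaptors, 14 of 14 measured, had a median of -0.01 and 0 past the threshold. Socs3, the inhibitor of cytokine signalling that acts chiefly on STAT3, measured 102, 110.2, 108 and 81.8% in control and 61.9, 77.7, 54.8 and 78.8% in shRaly arrays. The groups did not overlap, and the log2 fold change of -0.57 (SE 0.15) missed the threshold in limma (adjusted p = 0.118). Sh2b3, an adaptor that restrains JAK2, also had groups that did not overlap (-0.22, SE 0.09, adjusted p = 0.264). Its second probe stood at 0.03 (SE 0.12). With normexp background correction, where the brightest probe was chosen anew, the gene stood at -0.03.

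Of the other IGF carriers and proteases, 5 of 10 were measured, with a median of -0.04 and 0 past the threshold. Igf2, Igfbp7 and the protease gene Pappa2 were well above background on 0 arrays, and Pappa and Stc2 on 1. Igfbp3, the main carrier of IGF1 in plasma, measured 78.2, 92.1, 131 and 106% in control and 73.1, 88.2, 77.4 and 61.6% in shRaly arrays (log2 fold change -0.43, SE 0.17, limma adjusted p = 0.270). Igfbp5 had a log2 fold change of 0.61 with an SE of 0.41.

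Growth hormone sets much of the sex difference of mouse liver, so the genes of that difference were followed as a further readout. The 7 transcription factors linked to growth hormone action, all measured, had a median of 0.03, the value of Hnf4a, and 0 past the threshold. They include Bcl6, described above, Cux2, a factor of female liver, with a log2 fold change of 0.27 (SE 0.26) and a signal well above background on only 2 arrays of each group, and Trim24 (0.43, SE 0.26). Genes of the male pattern, 14 of 15 measured, had a median of -0.03. Among them Mup21, a major urinary protein gene of a family with near-identical copies, stood at -0.35 (SE 0.12, limma adjusted p = 0.212) and the steroid hydroxylase gene Cyp2d9 at -0.27 (SE 0.20). Genes of the female pattern, 7 of 15 measured, had a median of -0.04, with Cyp2a4 at 0.50 (SE 0.21, adjusted p = 0.278) and Cyp17a1 at 0.56 (SE 0.27, adjusted p = 0.351). Cyp2a4 has the near-identical relative Cyp2a5, whose RNA its probe may also read. The 2 genes named from each pattern were those of smallest p, and other genes went the other way. Cyp7b1 (0.31) and Hsd3b5 (0.09) of the male pattern were higher. Cyp3a16 (-0.16) and Cyp2b9 (-0.63, well above background on 2 arrays of each group) of the female pattern were lower. The female-pattern genes Cyp2b13, Cyp3a44, Sult3a1 and Hao2 were well above background on 0 arrays, and Sult2a1 and A1bg on 1. In both patterns 0 genes passed the threshold.

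Immediate early and general STAT5 target genes, 7 of 8 measured, had the most negative list median, -0.21, with 0 past the threshold. Egr1, an immediate early transcription factor, measured 146, 93.1, 113 and 65.0% in control and 34.1, 47.3, 46.8 and 58.4% in shRaly arrays. The groups did not overlap, and the log2 fold change was -1.13 (SE 0.25, limma adjusted p = 0.0752). It passed with normexp background correction (0.0421) and with a trended, robust variance (0.0460). Junb, another of these factors, had a log2 fold change of -1.19 (SE 0.41, adjusted p = 0.203), which was -0.19 with normexp background correction and -0.58 without both arrays numbered 1. Its signal was well above background on 4 control arrays but on only 2 shRaly arrays. The 3 genes that are known to rise when liver loses STAT5 had a median of 0.03, with Pparg, a regulator of fat storage, at -0.16 (SE 0.22) and Lpl, lipoprotein lipase, at 0.07 (SE 0.17).

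Partners of Igfbp1 in the insulin and FOXO response, 8 of 8 measured, had the highest list median, 0.25, with 0 past the threshold. Foxo1, the transcription factor that insulin switches off and that drives Igfbp1, measured 111, 97.1, 94.3 and 98.6% in control and 140.0, 123, 132 and 175% in shRaly arrays. Every shRaly value lay above every control value, and the log2 fold change was 0.50 (SE 0.12, limma adjusted p = 0.0949). Pck1, the gluconeogenic enzyme gene, also had groups that did not overlap, at 108, 95.3, 89.0 and 109% in control and 119, 140.4, 113 and 157% in shRaly arrays (0.39, SE 0.13, adjusted p = 0.190). Array shRaly 4, the highest for Foxo1 and Pck1, was the array with 256% of the control mean in Igfbp1. Array shRaly 1, the lowest of all 8 for Igfbp1 (42.5%), lay above shRaly 2 and 3 for Foxo1. Whether these genes move together was not tested.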

How the data were processed

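Each deposited file holds spot intensity from Agilent Feature Extraction (11.5.1.11 per the submitters' processing notes, 11.5.1.1 per the file headers). Per the file headers, its processed signal has had background subtracted and no scaling from array to array. The deposited series table equals it for 62976 of 62976 spots per array. The log2 of the deposited intensity was taken and each array's 75th percentile subtracted (7.86 to 8.19). Outlier spots (137 to 163 per array) were set to missing, and 0 were saturated. Arrays give no counts, and their number limits the precision.

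Through a RefSeq table of assembly GRCm38.p6, 27656 probes were named by accession, 3401 by current symbol (of the 20, an Igf1 and a Socs2 probe) and 321 by older symbol, and 1775 kept the file's name. A gene was tested if a probe passed the flag for a signal well above background on 4 or more of the 8 arrays and had values on at least 3 per group, and the brightest probe stood for it (14874 genes). Groups, from the sample titles, were compared with limma 3.58.1 in R 4.3.3 with Benjamini-Hochberg adjustment, tested on simulated data. Genes named beyond the 10 followed a rule: in each list those past the threshold, otherwise the 2 of smallest p, plus Raly, Prlr, Irs2, Socs3, Igfbp3, Bcl6 and Cux2. The alternatives tried are given in the closing section. Members and lists were chosen with earlier results of these data known. Same-numbered arrays had deviation correlations of 0.09, -0.02, -0.07 and 0.14, and arrays of different number had ones from -0.28 to 0.23. Same-numbered arrays also shared a slide column. These values cannot settle whether the numbers pair the arrays.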

Additional observations from a re-analysis of the deposited data

Results flagged for a closer look

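Socs2 in array control 1 stood apart from the other control arrays. It measured 51.9% of the control mean, against 115% to 129.8% in the other 3 control arrays, and its gap to the nearest of them was 0.872 of the group's range, above Dixon's 95% critical value for 4 samples. This was 1 of 62 groups of 4 arrays examined, over 31 genes, and chance marks about 1 in 20 such groups. The same array was the lowest control array for 8 of the 10 genes.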

How the results depend on the processing

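Over 20 alternatives (8 leaving out an array, 12 others, of which the one without both arrays numbered 1 was chosen after seeing the data), 0 of the 10 genes passed the threshold. Of their 200 log2 fold changes, 188 kept their sign and 12 changed it, and the lowest adjusted p in limma was 0.257. With an array left out, values that changed sign ranged from -0.34 to 0.52 for Igfbp1, -0.37 to 0.77 for Cish, -0.098 to 0.061 for Stat5b, -0.30 to 0.024 for Igfbp2, -0.17 to 0.020 for Igfals, -0.53 to 0.61 for Bcl6, -0.26 to 0.0996 for Irs2, -0.31 to 0.014 for Pparg and -0.027 to 0.16 for Lpl. Without both arrays numbered 1, the values were -0.057 for Stat5a, 0.091 for Igfals, -0.30 for Cish, 0.067 for Irs2 and 0.011 for Cyp2d9, and with normexp Bcl6 was at -0.0088. With the sign kept, normexp moved Junb from -1.19 to -0.19 and Sh2b3 from -0.22 to -0.030, and over all alternatives Igfbp5 ranged from 0.30 to 0.98 and Cux2 from 0.042 to 0.43. The cause was not tested. The count over all genes, 182, became 42 with no filter on dim probes, 46 with the replicate number as a block, 7 without both arrays numbered 1, and 17 (without control 2) to 282 (without shRaly 2) with an array left out, 252 with normexp and 269 with a trended, robust variance. The count among the genes of the lists, 1, became 2 with normexp and with a trended, robust variance. It became 0 with median scaling, with no filter, with the replicate block (Igf2r adjusted p = 0.139) and without both arrays numbered 1, and was 0 to 1 with an array left out. The replicate block changed no other call among the named genes. Signal over background limits Cux2, Junb and the genes not measured.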
